A study of Mus musculus with 9 samples.

Results

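The genes described here make and sense prostaglandins. They are the cyclooxygenases Ptgs1 and Ptgs2, the terminal synthases Ptges, Ptges2, Ptgds and Ptgis, and the 4 prostaglandin E2 receptors Ptger1, Ptger2, Ptger3 and Ptger4. Members were all probe sets of the array whose gene symbol in the platform annotation was exactly one of these 10 names. That gave 16 probe sets for 9 genes among 45037 probe sets tested. Ptgs1, the cyclooxygenase made constitutively in many cells, had no probe set of that name in the annotation and was not analysed here.

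Podocytes were collected from 5 diabetic OVE26 mice (genotype OVE-GFP) and from 4 normal FVB mice, which the labels call wild type, all on the FVB background and aged 3 to 4 months. OVE26 mice carry a calmodulin transgene expressed in pancreatic beta cells and become diabetic early in life, and the green fluorescent protein marks podocytes. Sorting was by that fluorescence, although the genotype label of the FVB mice names no fluorescent transgene. Each mouse gave 1 array of amplified RNA, and every value below is a log2 intensity of a probe set, with differences given as OVE26 minus FVB.

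Prostaglandins are made from arachidonic acid, which phospholipases free from membranes. Cyclooxygenases turn it into prostaglandin H2, and terminal synthases convert that to prostaglandin E2, D2 or prostacyclin. Prostaglandin E2 acts through EP receptors: EP1 raises calcium, EP2 and EP4 raise cyclic AMP and EP3 lowers it. In the kidney, Ptgs2 is made by the macula densa, the neighbouring thick ascending limb and interstitial cells and can be induced in podocytes, while EP3 is best known from the thick ascending limb and collecting duct, and EP4 from the glomerulus, podocytes included.

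C/EBP factors are among the regulators of Ptgs2 measured on the same arrays, and a motif that they bind was searched for beside general promoter motifs. Motifs of other listed regulators of Ptgs2, such as NF-kB and NFAT, were not searched for. The promoters of the genes with the clearest separation between groups are shown. Each is 300 bases, from 250 before to 50 after an annotated start, read 5′ to 3′ on the gene's strand in RefSeq's GRCm38.p6 tables. Ptgs2 lies at chr1:150099781-150100080 on the plus strand and Ptges at chr2:30903248-30903547 on the minus strand. Capitals mark the matches to 5 motifs, each searched on both strands. TGACGT is the core of the cyclic AMP response element, through which protein kinase A signalling reaches many promoters. CACGTG is an E-box, the element of many helix-loop-helix factors. TTGCGCAA is a palindrome bound by the C/EBP factors, of which Cebpd is one. GGGCGG is a GC box, common in promoters and bound by factors such as Sp1. TATAAA is the TATA box, which places the start of transcription in some genes.
Ptgs2: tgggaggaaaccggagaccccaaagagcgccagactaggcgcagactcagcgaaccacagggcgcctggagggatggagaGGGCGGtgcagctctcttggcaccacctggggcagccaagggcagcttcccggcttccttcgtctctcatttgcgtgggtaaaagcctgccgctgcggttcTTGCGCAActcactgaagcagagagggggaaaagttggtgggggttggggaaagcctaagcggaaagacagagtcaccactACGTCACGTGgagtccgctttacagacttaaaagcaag
Ptges: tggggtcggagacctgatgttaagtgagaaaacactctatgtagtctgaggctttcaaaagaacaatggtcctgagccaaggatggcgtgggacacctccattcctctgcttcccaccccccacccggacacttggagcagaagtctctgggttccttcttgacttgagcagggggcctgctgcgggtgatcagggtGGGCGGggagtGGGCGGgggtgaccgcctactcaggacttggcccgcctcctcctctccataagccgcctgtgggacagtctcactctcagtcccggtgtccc

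In the Ptgs2 window the TGACGT core was found on the minus strand, 13 to 18 bases after the annotated start, overlapping CACGTG at 17 to 22 bases. TTGCGCAA lay 69 to 62 bases before it and GGGCGG 170 to 165 bases before. The Ptges window held GGGCGG at 53 and at 42 bases before the start and none of the other 4 motifs. Over all 32851 windows of this length, TGACGT was found in 7.51%, CACGTG in 7.15%, TTGCGCAA in 0.183%, GGGCGG in 35.7% and TATAAA in 13.6%. Of the other measured members with a window in the tables, Ptges2 held CACGTG, Ptger3 and Ptger4 held GGGCGG, and Ptgds and Ptger2 held none of the 5. Matches describe letters only and were not tested for binding.

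The comparison asks how these genes differ between podocyte sorts of diabetic and normal mice. The inducible cyclooxygenase Ptgs2 and the inducible prostaglandin E synthase Ptges lay higher in OVE26 arrays, by 4.50-fold and 2.63-fold at their brightest probe sets, with no overlap between the groups. The receptors Ptger1 and Ptger4 lay lower, 2.00-fold and 1.24-fold at their brightest probe sets. None of these differences passed adjustment over all probe sets: 0 of 16 member probe sets had an adjusted p under 0.05 in either direction (limma with Benjamini-Hochberg adjustment), where 0.195% of all probe sets were called higher and 0.0755% lower. At an unadjusted p under 0.05, 4 member probe sets were higher (both of Ptgs2, and 2 of the 3 of Ptges) and 3 lower (1 of Ptger1, both of Ptger4), where 6.59% and 7.14% of all probe sets were. In 4 member probe sets, the same ones of Ptgs2 and Ptges, every OVE26 array was above every FVB array, as in 2.67% of all probe sets. In 0 was every OVE26 array below every FVB array, against 2.78% of all. The median difference was 0.32 over the 16 probe sets and -0.01 over all probe sets. Probe sets of 1 gene share their target, so these counts stand for fewer genes than probe sets.

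**Figure D1:**
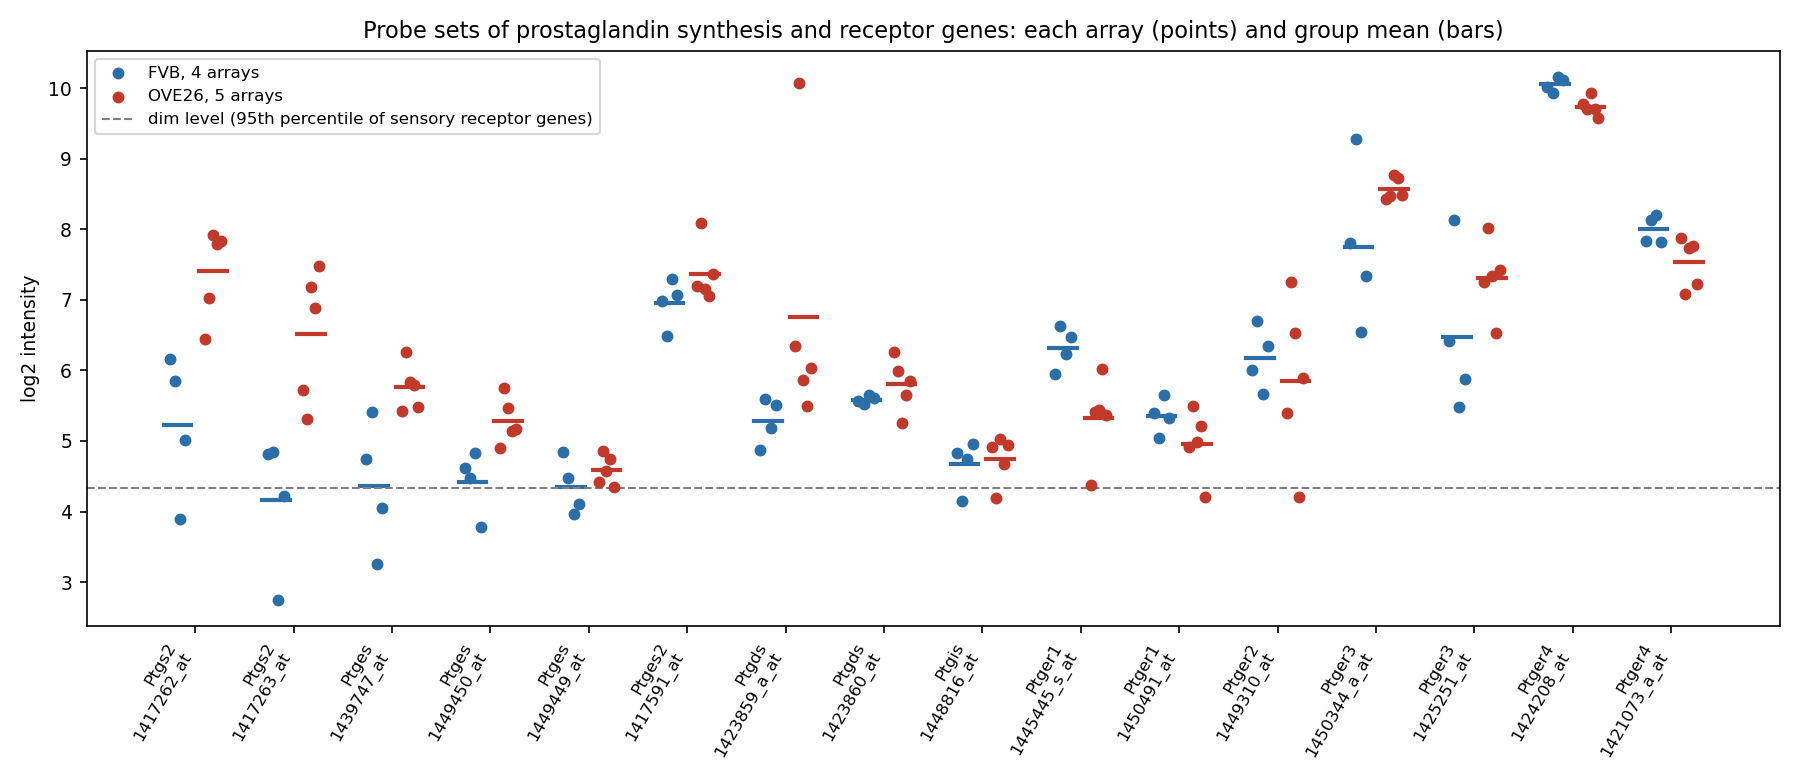
Log2 intensity (vertical axis) of the 16 probe sets, with each array as a point, group means as bars and the dim level of 4.34 as a dashed line. The OVE26 points of both Ptgs2 probe sets lie above all FVB points, the Ptger3 FVB points are spread widely, and 1 OVE26 array stands at 10.07 for Ptgds.

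As no detection calls were used, a probe set was called dim where its group mean was at or below 4.34, the 95th percentile of 83 probe sets of olfactory, vomeronasal and taste receptor genes, which kidney cells are not known to use. Of the 16 member probe sets 15 were above this level in both groups and 1, of Ptgs2, was dim in FVB arrays. Signal near this level carries little information on abundance. That applies to the FVB arrays for Ptges, and to both groups for Ptgis and one of the Ptges probe sets.

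Ptgs2, which encodes the inducible cyclooxygenase-2, showed the largest differences among the members. With probe set 1417262_at the OVE26 arrays read 6.45, 7.03, 7.92, 7.79 and 7.83, and the FVB arrays 6.17, 5.85, 3.89 and 5.01. All OVE26 arrays lay above all FVB arrays, but the gap between OVE26 1 and FVB 1 was 0.28. The means were 7.40 ± 0.64 (SD, n = 5) and 5.23 ± 1.02 (SD, n = 4), a difference of 2.17 (SE 0.47, 95% interval 1.12 to 3.22, limma, adjusted p = 0.104). Within FVB the values ranged over 2.27 on the log2 scale, wider than the difference between the groups.

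The other Ptgs2 probe set, 1417263_at, gave 5.73, 5.31, 7.18, 6.89 and 7.47 in OVE26 arrays and 4.81, 4.85, 2.75 and 4.22 in FVB arrays. OVE26 3, 4 and 5 were again the high arrays, and FVB 3 again the lowest. The difference was 2.36 (SE 0.55, 95% interval 1.13 to 3.58, limma, adjusted p = 0.116). Because its FVB mean of 4.16 was dim, the fold is given against the dim level, at least 4.52-fold higher. Deviations of the arrays from their group means followed each other in both probe sets (r = 0.905 over 9 arrays, given as a description). When 1 array was left out at a time, the difference at 1417262_at ranged from 1.72 to 2.48 and the adjusted p from 0.0806 to 0.246 (limma).

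Ptges encodes the microsomal prostaglandin E synthase that is induced together with Ptgs2 in many cells. Its brightest probe set, 1439747_at, read 5.43, 6.26, 5.83, 5.79 and 5.49 in OVE26 arrays and 4.74, 5.41, 3.26 and 4.05 in FVB arrays. The groups touched: OVE26 1 exceeded FVB 2 by 0.02. The difference was 1.39 (SE 0.38, 95% interval 0.55 to 2.24, limma, adjusted p = 0.154). Without FVB 2 it was 1.74 (limma, adjusted p = 0.0455), the one setting in which a member probe set passed the threshold, and without FVB 3 it was 1.03 (limma, adjusted p = 0.283).

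The Ptges probe set 1449450_at differed by 0.86 (limma, adjusted p = 0.153) and its lowest OVE26 array, at 4.90, lay just above its highest FVB array, at 4.83. Probe set 1449449_at, close to the dim level in both groups, differed by 0.24 (limma, adjusted p = 0.645) and its groups overlapped. The array order was not shared throughout: within groups 1439747_at followed 1449449_at (r = 0.772 over 9 arrays) but hardly 1449450_at (r = 0.158).

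Ptges2, a membrane-associated prostaglandin E synthase made constitutively, averaged 7.37 ± 0.42 (SD, n = 5) across OVE26 arrays, whereas the FVB mean was 6.96 ± 0.34 (SD, n = 4). The difference of 0.41 (95% interval -0.11 to 0.93, limma, adjusted p = 0.486) included 0, and the highest array, OVE26 2 at 8.09, widened it. Ptgis, the prostacyclin synthase of vascular cells, was at 4.75 ± 0.34 (SD, n = 5) and 4.67 ± 0.36 (SD, n = 4), near the dim level. Its difference of 0.08 had a 95% interval from -0.39 to 0.56 (limma, adjusted p = 0.914).

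Ptgds, the lipocalin-type prostaglandin D synthase, gave different pictures with its probe sets. With 1423859_a_at the OVE26 arrays read 6.35, 10.07, 5.86, 5.49 and 6.03 and the FVB arrays 4.87, 5.59, 5.18 and 5.51. OVE26 2 stood far above the rest, and of the other OVE26 arrays OVE26 4 lay within the FVB range and 3 lay above it. The difference was 1.47 (SE 0.81, limma, adjusted p = 0.470) and 0.65 without OVE26 2 (limma, adjusted p = 0.231). With 1423860_at OVE26 2 read 5.99, inside the range of 5.26 to 6.26 of its group, and the groups differed by 0.21 (limma, adjusted p = 0.664).

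**Figure D2:**
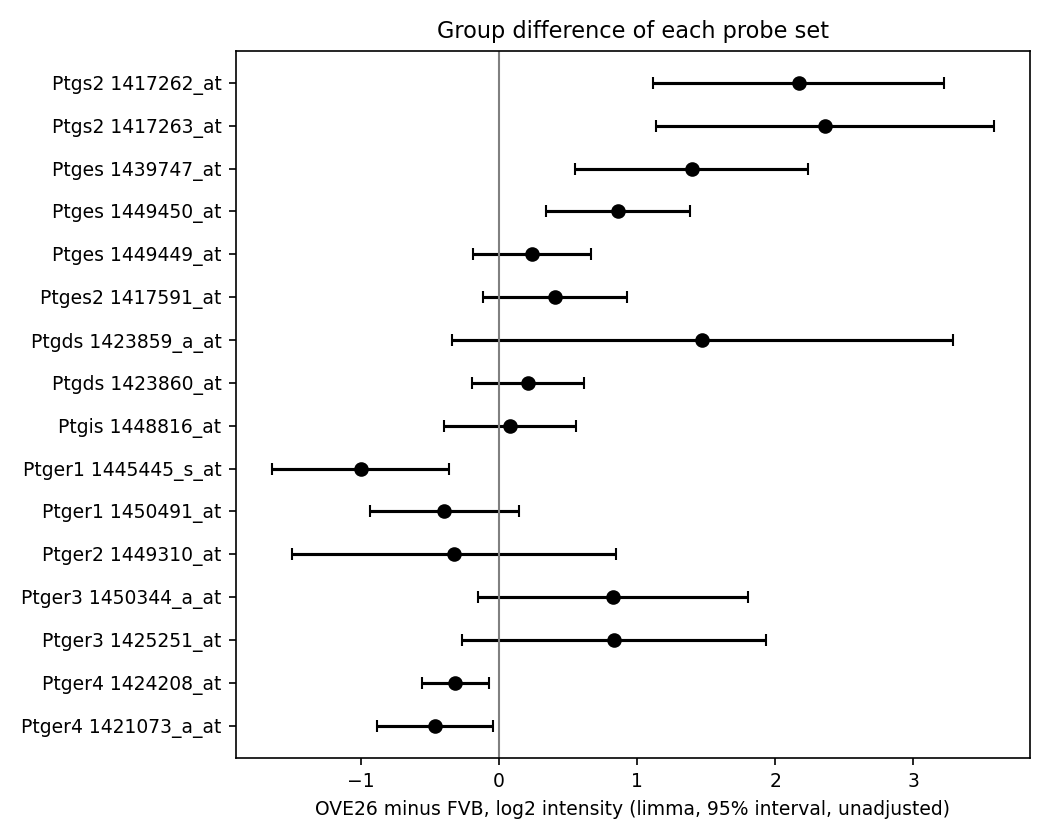
Difference in log2 intensity between OVE26 and FVB arrays (horizontal axis) for each of the 16 probe sets, with 95% intervals from limma that are not adjusted for the number of probe sets. Intervals of Ptgs2, of 2 Ptges probe sets, of Ptger1 1445445_s_at and of both Ptger4 probe sets exclude 0, and after adjustment over all probe sets none passed.

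Among the receptors, Ptger4, which encodes the EP4 receptor, had the tightest values. With probe set 1424208_at the OVE26 arrays read 9.78, 9.70, 9.93, 9.70 and 9.57 and the FVB arrays 10.01, 9.93, 10.16 and 10.11. Only OVE26 3 reached the FVB range. The means were 9.74 ± 0.13 (SD, n = 5) and 10.05 ± 0.10 (SD, n = 4), a difference of -0.31 (SE 0.11, 95% interval -0.56 to -0.07, limma, adjusted p = 0.242).

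The other Ptger4 probe set, 1421073_a_at, read 7.88, 7.08, 7.73, 7.76 and 7.23 in OVE26 arrays and 7.83, 8.13, 8.20 and 7.82 in FVB arrays. OVE26 2 and OVE26 5 were low, and OVE26 1 lay above 2 of the FVB arrays. The difference was -0.46 (95% interval -0.88 to -0.04, limma, adjusted p = 0.315). Both probe sets thus lay lower in OVE26 by similar amounts without passing. Beside them, the score of 17 podocyte markers, the mean of their log2 values centred over the arrays, was lower by 0.32 in OVE26, as given with the marker scores. Within groups Ptger4 hardly followed that score, with r = 0.130 at 1424208_at and -0.008 at 1421073_a_at over 9 arrays. Without the 2 arrays farthest from the median score r was -0.048 and -0.374. In sorted cells, fewer podocytes in a sort and less RNA per podocyte cannot be told apart.

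Ptger1, the calcium-coupled EP1 receptor, read 4.38, 5.40, 5.44, 6.02 and 5.37 in OVE26 arrays and 5.95, 6.62, 6.24 and 6.47 in FVB arrays with probe set 1445445_s_at. The groups overlapped through OVE26 4 and FVB 1 alone. The means of 5.32 ± 0.59 (SD, n = 5) and 6.32 ± 0.29 (SD, n = 4) differed by 2.00-fold, lower in OVE26 (SE 0.29 and 95% interval -1.64 to -0.36 on the log2 scale, limma, adjusted p = 0.170). The ending _s_at marks a probe set whose probes can match more than 1 transcript. With probe set 1450491_at the difference was -0.39 (95% interval -0.93 to 0.14, limma, adjusted p = 0.519), and within groups its arrays did not follow those of the first (r = 0.0693 over 9 arrays). Probe set 1445445_s_at and the podocyte marker score both had lower means in OVE26 arrays, but within groups they ran in opposite directions (r = -0.912 over 9 arrays, and -0.633 without the 2 arrays farthest from the median score).

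Ptger2, the EP2 receptor, varied within the OVE26 group more than between groups. Its OVE26 arrays read 5.40, 7.26, 6.53, 4.20 and 5.90, and its FVB arrays 6.01, 6.70, 5.67 and 6.35. OVE26 4 lay below the dim level, whereas OVE26 2 was the highest of the 9. The difference was -0.32 (95% interval -1.50 to 0.85, limma, adjusted p = 0.847), 0.088 without OVE26 4 (limma, adjusted p = 0.947) and -0.67 without OVE26 2 (limma, adjusted p = 0.544).

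Ptger3, the EP3 receptor, showed the reverse spread. With probe set 1450344_a_at the OVE26 arrays read 8.42, 8.47, 8.76, 8.73 and 8.48, and the FVB arrays 7.80, 9.28, 6.55 and 7.34. OVE26 arrays lay within 0.34 of each other, while FVB arrays ranged over 2.74, with FVB 2 above all others. The SD was 0.16 (n = 5) in OVE26 and 1.15 (n = 4) in FVB, and the difference of 0.83 (95% interval -0.15 to 1.81) did not pass (limma, adjusted p = 0.448). Without FVB 2 it was 1.34 (limma, adjusted p = 0.0514), without FVB 3 it was 0.43 (limma, adjusted p = 0.731), and with a sex score as covariate 0.52 (limma, adjusted p = 0.643).

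Probe set 1425251_at of Ptger3 read 7.26, 8.01, 7.34, 6.52 and 7.43 in OVE26 arrays and 6.42, 8.13, 5.49 and 5.88 in FVB arrays. FVB 2 was again the highest and FVB 3 again the lowest array. Its difference was also 0.83 (95% interval -0.27 to 1.93, limma, adjusted p = 0.507). It was 1.38 without FVB 2, 0.50 without FVB 3 and 0.35 with the sex score (limma, adjusted p = 0.101, 0.772 and 0.724). Deviations within groups ran together in both Ptger3 probe sets (r = 0.820 over 9 arrays).

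Scores of cell type markers were set beside these values, since several members are known from cells other than podocytes. Each score is the mean log2 intensity of a list's genes, centred over the 9 arrays. All 17 measured podocyte markers were above the dim level in both groups, with Podxl at 12.99 in OVE26 and 13.10 in FVB arrays. For the podocyte list the OVE26 arrays averaged -0.14 ± 0.19 (SD, n = 5) and the FVB arrays 0.18 ± 0.10 (SD, n = 4) (exact permutation over arrays, 2-sided p = 0.0238, adjusted p = 0.0655 over 11 lists).

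Markers of the distal tubule and collecting duct, a site of EP receptors, were higher in the OVE26 sorts. All 18 listed genes were measured, with 1 dim in both groups (Scnn1a, a subunit of the sodium channel) and 5 dim in FVB arrays alone. The score ran from 0.23 to 1.63 in OVE26 and from -1.20 to -0.36 in FVB arrays (exact permutation p = 0.00794, which is the lower limit for 5 against 4 arrays, adjusted p = 0.0437). The score of the list named for parietal epithelial cells, which line Bowman's capsule, ran from 0.13 to 0.76 in OVE26 and from -0.79 to -0.11 in FVB arrays (exact permutation p = 0.00794, adjusted p = 0.0437). Whether the genes of that list also mark tubule cells in these sorts was not tested. The macrophage score ran from -0.26 to 0.66 in OVE26 and from -0.38 to -0.20 in FVB arrays (exact permutation p = 0.0238, adjusted p = 0.0655). Of its 24 genes 23 were measured, and 18 of these had higher means in OVE26 arrays, as did 9573 of all 18193 genes. Above the dim level in both groups were 9, and 6 were dim in FVB arrays alone. The other 8 were dim in both groups, among them Adgre1, Cd68, Itgam and Cx3cr1. Ptgs2, Ptges and the distal, parietal and macrophage scores all had higher means in OVE26 arrays, and the part of other cells in the Ptgs2 and Ptges values was not tested.

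**Figure D3:**
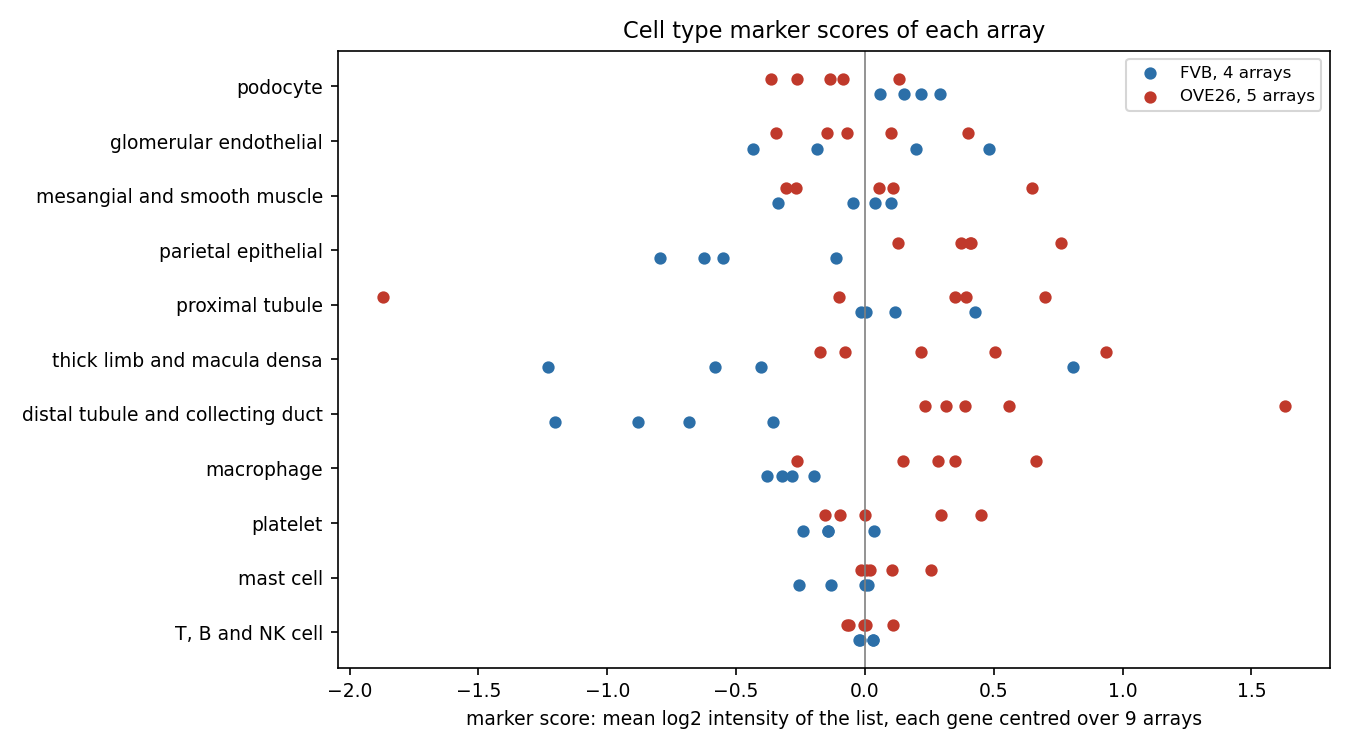
Marker scores (horizontal axis, mean centred log2 intensity) of 11 cell type lists, with each array as a point. The distal tubule and collecting duct score and the parietal score separate OVE26 from FVB arrays, the thick limb score overlaps, and 1 OVE26 array is at -1.87 on the proximal tubule score.

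Markers of the thick ascending limb and macula densa ran with Ptger3 and with Ptges 1439747_at from array to array. The list includes the sodium-potassium-chloride cotransporter Slc12a1 and Umod, which encodes uromodulin. All 10 measured genes of that list were above the dim level in both groups. Its score was 0.81 in FVB 2, -0.40 in FVB 1, -0.58 in FVB 4 and -1.23 in FVB 3. In the FVB arrays this order was also that of both Ptger3 probe sets, of Ptges 1439747_at and of Ptgs2 1417263_at. At Ptgs2 1417262_at FVB 1 lay above FVB 2, and FVB 3 was again the lowest. The OVE26 scores were -0.18, 0.94, 0.22, -0.08 and 0.50, so the groups overlapped (exact permutation p = 0.190, adjusted p = 0.324).

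With group means removed, the thick limb score and Ptger3 1425251_at had r = 0.943 and a Spearman rho of 0.867 over 9 arrays, and r = 0.815 without FVB 2 and FVB 3. For Ptger3 1450344_a_at r was 0.813, but -0.02 without those 2 arrays, so that relation rests on them. For Ptges 1439747_at r was 0.882, or 0.601 without them, but for Ptges 1449450_at it was 0.189 and for 1449449_at 0.471. Other scores ran with these probe sets too. Ptges 1439747_at had r = 0.696 with the parietal and 0.686 with the distal score, and Ptger3 1450344_a_at 0.781 with the parietal score. These are among 176 such values (16 probe sets by 11 lists), set values of the same sorted and amplified RNA against each other, and carry no test. Ptgs2 followed this score less closely, with r = 0.533 at 1417262_at and 0.362 at 1417263_at, and both values were low without FVB 2 and FVB 3 (0.099 and -0.22). Its r with the mesangial and smooth muscle score was 0.652 at 1417262_at and 0.759 at 1417263_at. Without the 2 arrays farthest from the median of that score it was 0.778 and 0.834. In the same order, r with the glomerular endothelial score was 0.650 and 0.709 (0.567 and 0.667 without its 2 farthest arrays). With the macrophage score r was 0.473 and 0.717 (0.719 and 0.848), and with the parietal score 0.626 and 0.535 (0.703 and 0.552). With the podocyte score r was -0.677 and -0.626 (-0.625 and -0.692). The part of these cell types in the Ptgs2 values was not tested.

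**Figure D4:**
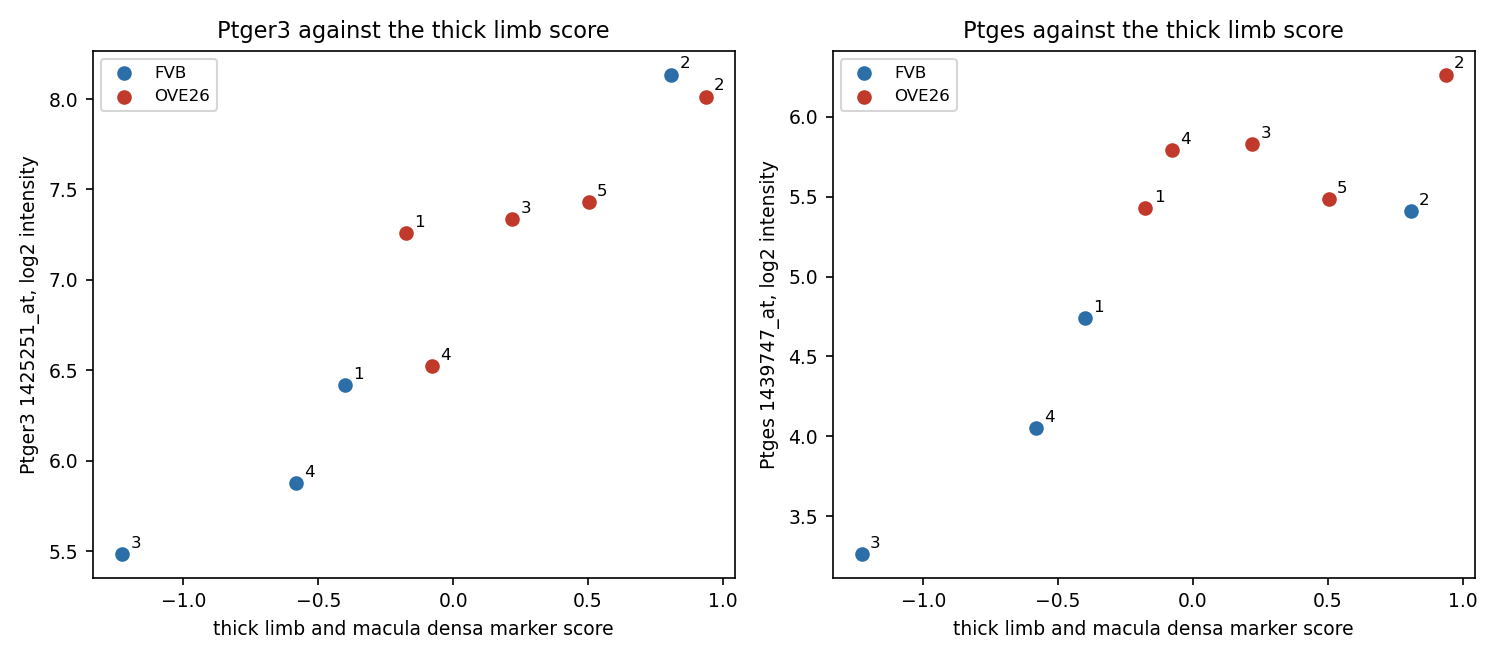
Log2 intensity (vertical axes) of Ptger3 1425251_at and Ptges 1439747_at against the thick limb and macula densa marker score (horizontal axes), with each array as a point labelled by its number in the group. FVB 3 has the lowest value on every axis, and FVB 2 and OVE26 2 have the highest scores.

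Among 12359 other genes at or above the 40th percentile of mean intensity, the ones whose within-group deviations over the 9 arrays were most like those of Ptges 1439747_at were Cldn8 (r = 0.978), Eps8 (r = 0.971) and St14 (r = 0.966). For Ptger3 1450344_a_at they were Mal (r = 0.972), Mpzl2 (r = 0.970) and Sorbs3 (r = 0.969). For Ptgs2 1417262_at they were Tcaf1 (r = 0.961), Ptpn9 (r = 0.959) and Tcf24 (r = 0.929), and for Ptger4 1424208_at Arhgap17 (r = 0.954), Rpap3 (r = 0.942) and Gsdmd (r = 0.942). Each is the highest of many values over few arrays.

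The genes around the members in the pathway were read from fixed lists, each gene by its brightest probe set, where 0.291% of all 18193 genes were called higher and 0.066% lower. Of 24 genes listed under arachidonic acid release, which include the receptor gene Pla2r1, 0 were called in either direction. At an unadjusted p under 0.05 there were also 0 (limma), where 8.7% of all genes were higher and 5.85% lower. Of the 24 genes, 12 were dim in both groups and 1 in OVE26 arrays alone, so their values carry little information on change. Their median difference was 0.12, against 0.01 over all genes. Faah, which hydrolyses fatty acid amides, differed by 0.32 (limma, adjusted p = 0.368), and Plaat3, a phospholipase, by 0.47 (limma, adjusted p = 0.482).

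Of 9 other prostanoid synthases 1 was called higher and 0 lower, with a median of 0.46. Hpgds, the haematopoietic prostaglandin D synthase, rose by 1.13 (SE 0.19, limma, adjusted p = 0.0481). Its arrays read 3.87 to 4.21 in OVE26 and 2.33 to 3.33 in FVB, dim in both groups, so no fold is given, and leaving out any 1 of the 9 arrays ended the call. Akr1c18, an aldo-keto reductase of prostaglandin and progesterone metabolism, differed by 1.13 (limma, adjusted p = 0.0860), and the carbonyl reductase Cbr1 by 0.95 (limma, adjusted p = 0.108).

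Of 13 genes of prostanoid transport and breakdown 1 was called higher and 0 lower, with a median of 0.15. Slco4a1, an organic anion carrier whose substrates include prostaglandin E2, averaged 8.98 ± 0.28 (SD, n = 5) across OVE26 arrays, whereas the FVB mean was 6.74 ± 0.70 (SD, n = 4). It rose 4.72-fold at probe set 1438160_x_at (limma, adjusted p = 0.0289), with the lowest OVE26 array at 8.56 and the highest FVB array at 7.41. Its dimmer probe set, 1455803_at, differed by 0.52 (limma, adjusted p = 0.175), and of the 9 fits that each dropped an array the call held in 3, those without OVE26 1, OVE26 2 or FVB 2. The ending _x_at marks a probe set whose probes can also match other sequences. Abcc4, an exporter of prostaglandin E2, differed by 1.40 (limma, adjusted p = 0.0668) and Hpgd, which inactivates prostaglandins, by 1.47 (limma, adjusted p = 0.172) from a dim FVB mean.

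Of 6 receptors for other prostanoids 0 were called (limma, 2 at an unadjusted p under 0.05, both higher, where 8.7% of all genes were). Ptgfr, the prostaglandin F2 alpha receptor, differed by 0.73 (limma, adjusted p = 0.181) and Tbxa2r, the thromboxane receptor, by -0.20 (limma, adjusted p = 0.664). Among 38 genes of receptor coupling, cyclic AMP and calcium 0 were called, with 2 higher and 3 lower at an unadjusted p under 0.05 (8.7% and 5.85% of all genes) and a median of -0.06. The receptor kinase gene Grk5 differed by -0.59 (limma, adjusted p = 0.142) and the arrestin gene Arrb1 by -0.41 (limma, adjusted p = 0.144), and in each every OVE26 array was below every FVB array, as in 2.62% of all genes.

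Of 29 genes that regulate Ptgs2, 0 were called, with 10 higher and 2 lower at an unadjusted p under 0.05 by limma (8.7% and 5.85% of all genes) and a median of 0.23. The list mixes genes that raise Ptgs2 with genes that lower it, so these counts give no direction for Ptgs2. Cebpd, a C/EBP factor, read 6.94 to 9.32 in OVE26 and 6.28 to 6.54 in FVB arrays, a difference of 1.45 (limma, adjusted p = 0.195). In 4 of the 29, Cebpd among them, every OVE26 array was above every FVB array, as in 3.64% of all genes. Egr1, an immediate early factor, differed by 1.21 (limma, adjusted p = 0.237). Il6 differed by 2.82 from a dim FVB mean (limma, adjusted p = 0.253), and Tnf, which encodes a cytokine that induces Ptgs2, by 0.70 with both groups dim (limma, adjusted p = 0.114).

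**Figure D5:**
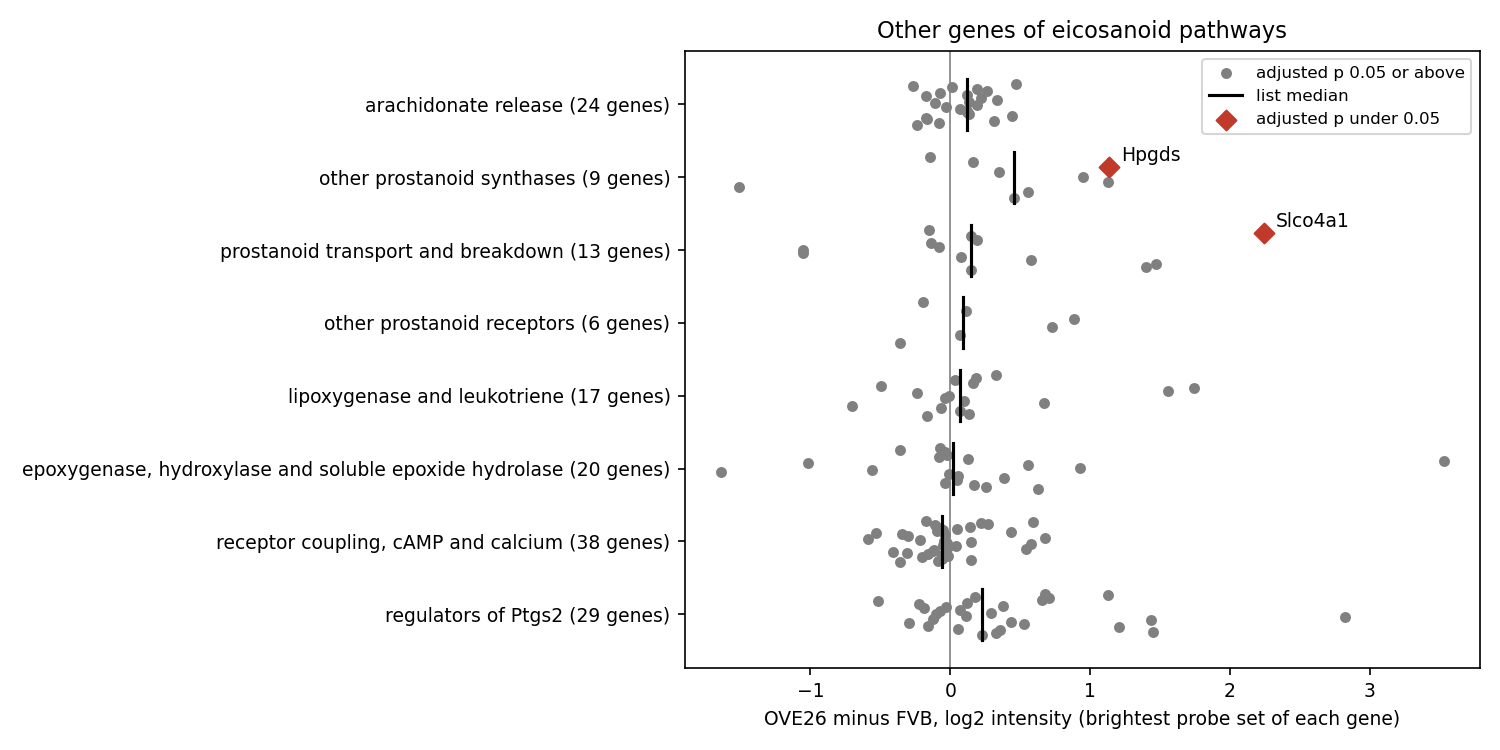
Difference in log2 intensity between OVE26 and FVB arrays (horizontal axis) of each gene in the 8 pathway lists, with list medians as black lines. Of the 156 genes, Hpgds and Slco4a1 (diamonds) had an adjusted p under 0.05.

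Array medians lay between 5.07 and 5.15 on the log2 scale. Across probe sets, which do not count as replicates, Pearson's r was 0.960 to 0.985 between OVE26 arrays and 0.980 to 0.989 between FVB arrays. OVE26 2 stood apart on the proximal tubule score (-1.87 against -0.10 to 0.70 in the other OVE26 arrays) and had the highest distal score (1.63). Without OVE26 2 the difference of Ptgs2 1417262_at was 2.26 (limma, adjusted p = 0.121) and that of Ptges 1439747_at was 1.27 (limma, adjusted p = 0.203).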

How the data were processed

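Glomeruli were isolated with magnetic beads and collagenase and dispersed with trypsin, and fluorescent cells were sorted, per the labels' protocols. Podocyte RNA from 5 OVE26 and 4 FVB mice was amplified and hybridised to 1 array each. The deposited values are linear intensity per probe set, which the authors made with tools named as RMA and Partek in the submitters' processing notes, with versions not given in the sources used here. Values were taken as log2, without further normalization. All 45037 probe sets that are not controls were fitted by group with limma 3.58.1 (R 4.3.3), and p-values were adjusted over all of them by the Benjamini-Hochberg method at 0.05. Symbols came from the platform annotation: 34945 probe sets had 1 symbol, 932 several and 9160 none, and the last 2 kinds were left unnamed.

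The members and lists were chosen with earlier results of these data known. All member probe sets are named. In the lists each gene was read by its brightest probe set, and genes were named from the 4 with the smallest p in a pathway list, the 4 brightest in a cell type list and the 3 most like each member. Dim markers were named after their values were seen. Marker scores were compared by 2-sided exact permutation over arrays. The labels number the mice and give neither sex nor batch, so no batch could be compared, and p-values measure the spread between these arrays. The number of arrays limits the precision. Promoters came from RefSeq, and those of Ptgis and Ptger1 were not analysed here. The sex score, an alternative covariate, was Xist minus the mean of 3 Y-linked genes. It ran from -4.21 to 8.94 in OVE26 and from -5.21 to 9.36 in FVB arrays. Each group thus held arrays with Xist above and arrays with Xist below the Y-linked mean.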

Additional observations from a re-analysis of the deposited data

Results flagged for a closer look

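Ptgds, read by probe set 1423859_a_at, had 1 OVE26 array far from the others of its group: OVE26 2 at 10.07, against 5.49 to 6.35 in the other 4. Of 32 groups of member values examined this way 1 was marked, and chance marks about 5%. The other Ptgds probe set read 5.99 in the same array. The array also had the lowest proximal tubule score (-1.87) and the highest distal tubule and collecting duct score (1.63). Over the 9 arrays, Ptgds 1423859_a_at had a within-group r of 0.878 with the distal score, and 0.256 without OVE26 2 and FVB 2. The part of these markers in the Ptgds value was not tested.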

How the results depend on the processing

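Of 322 values of members under other settings, 319 kept their direction and their side of the threshold. They are values of single probe sets, except in the setting that averages each gene's probe sets. Of the 322, 1 passed the threshold (Ptges 1439747_at without FVB 2, above) and 2 changed sign: Ptger2 (0.088 without OVE26 4, and from -0.67 to 0.088 with 1 array left out) and Ptgis (-0.092 without FVB 2, and from -0.092 to 0.22). Over all settings Ptgs2 1417262_at ranged from 1.72 to 2.48, with limma adjusted p from 0.0670 to 0.300. Counts moved more. Over all probe sets limma called 88 higher and 34 lower. Array weights gave 218 and 122, a sex score as covariate 32 and 8, a threshold of 0.1 gave 249 and 151 and one of 0.01 gave 0 and 0. Without variance moderation 0 and 0 were called (2706 and 2913 at an unadjusted p under 0.05). The labels' replicate numbers did not pair the samples, with same-number r from -0.184 to 0.107. The fit with the replicate block also drops OVE26 5, which has no partner: limma called 0 and 0 probe sets (2550 and 2803 unadjusted) and 0 pathway genes, against 33 and 4 probe sets and 0 pathway genes without OVE26 5 and with no block. Leaving out 1 array gave 0 to 323 higher and 0 to 101 lower calls, with 0 and 0 without OVE26 3, FVB 3 or FVB 4, and 323 and 101 without FVB 2. Pathway genes called higher (2) were 1 with a filter on dim probe sets, 0 without moderation, with the sex score or at 0.01, 5 with weights, 4 at 0.1 and 0 to 2 with 1 array left out. Those called lower were 0 to 1, and member probe sets called higher 0 to 1, each with the 1 call made without FVB 2. Signal near the dim level limits Ptges, Ptgis and the FVB values of Ptgs2.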

Other observations

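Other branches of arachidonic acid metabolism gave 0 calls in either direction (limma). Of 17 lipoxygenase and leukotriene genes 3 were higher and 1 lower at an unadjusted p under 0.05, where 8.7% and 5.85% of all genes were, and the median difference was 0.07. Of these genes 6 were dim in both groups and 3 in FVB arrays alone. Alox5ap, which presents arachidonic acid to 5-lipoxygenase, differed by 0.67 from a dim FVB mean (limma, adjusted p = 0.228). Alox5, which encodes that enzyme, differed by -0.70 with both groups dim (limma, adjusted p = 0.273). Of 20 epoxygenase, hydroxylase and epoxide hydrolase genes 4 were higher and 2 lower at an unadjusted p under 0.05 (limma), with a median of 0.02. In both groups 10 of them were dim. Cyp4a14, a fatty acid hydroxylase, read 7.60, 2.87, 9.09, 9.40 and 8.72 in OVE26 arrays and 3.27, 6.73, 3.19 and 2.85 in FVB arrays. OVE26 2 and FVB 2 each stood with the opposite group. The difference of 3.53, from a dim FVB mean, did not pass (limma, adjusted p = 0.280).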
